A study of Homo sapiens with 4 samples.

Results

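Markers of breast cancer stem cells, 9 genes in all, were followed in MDA-MB-231, an established cell line of triple-negative breast cancer. They were the surface protein genes CD44, CD24, EPCAM and PROM1, the aldehyde dehydrogenase genes ALDH1A1 and ALDH1A3, the transcription factor genes SOX4 and SOX9, and BMI1 of the Polycomb group. All 9 were found by symbol among the 20804 genes of the deposited table. The 4 RNA-seq libraries fell into 2 of cells with the genotype miR-3662-KO (KO) and 2 of wild-type cells (WT). The labels do not say how the microRNA was knocked out, whether the KO cells were a clone, or whether the replicates came from separate cultures. The series title names CRISPR interference and activation, and its design text names cells sorted by activity of the microRNA, and which of these applies to the KO libraries is unclear. The p-values therefore measure the spread between these libraries, which may be technical.

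In breast tumours, cells with much CD44 and little or no CD24 on their surface, or with high aldehyde dehydrogenase activity, are known to be enriched for cells that start new tumours on transplantation. CD44 is a receptor for hyaluronan, and CD24 is a small glycoprotein held to the membrane by a lipid anchor. ALDH1A1 and ALDH1A3 oxidise retinal to retinoic acid, SOX4 and SOX9 are DNA-binding factors of development, and BMI1 is a subunit of Polycomb repressive complex 1, which silences genes such as the INK4A locus. MDA-MB-231 is known as a mesenchymal-like line with much CD44 and little CD24.

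The microRNA is shown first because microRNAs are known to repress transcripts that pair with their seed. The mature sequence, from RefSeq (GRCh38.p14, chr6:134979355-134979378, minus strand), has bases 2 to 8, the seed, in capitals.
hsa-miR-3662: gAAAAUGAugaguagugacugaug
The complementary 7-mer TCATTTT was sought, on the transcript strand only, in the longest 3′ UTR that GENCODE 29 annotates for a gene. Of the 9 markers, 1 held a match, against 29.6% of all 19115 coding genes with such a UTR. Among the 10616 of these that were tested below the share was 33.5%, and 3 of the 9 markers were not tested. That match lies in CD44, in the 3069-base UTR from base 2394 after the stop codon (chr11:35231717-35231741, plus strand, GRCh38), with the 7-mer in capitals.
CD44 site 1: tgactacacgTCATTTTtaccaatg
The base that follows the 7-mer is not an A, the base that often extends such sites. A match is a description of letters and not a shown site.

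Values were deposited as FPKM, a fragment count scaled by transcript length and library size, so levels can be set side by side between genes. They summed to 528986 and 544650 in KO libraries and to 504102 and 520527 in WT libraries, and the depth is unknown. Genes that define a mesenchymal-like triple-negative line were checked in both groups. VIM, the gene of vimentin, was at 1155 ± 50.2 FPKM in KO and 1241 ± 113 FPKM in WT (SD, n = 2 each), ESR1 at no more than 0.01 FPKM in any library, and CDH1 at no more than 0.03 FPKM. The epithelial list that holds CDH1 was not silent. KRT7 was at 256 to 359 FPKM, KRT8 at 143 to 373 FPKM and KRT18 at 170 to 291 FPKM over the 4 libraries. KRT19 was at 14.0 to 26.5 FPKM and CLDN4 at 18.5 to 34.3 FPKM. Other genes of these lists were less uniform: SPARC was at 0.17 to 0.55 FPKM and ERBB2 at 8.55 to 11.4 FPKM over the 4 libraries, and CAV1 rose to 446 ± 4.89 FPKM in KO, against 175 ± 5.96 FPKM in WT (adjusted p 0.000536 in limma). Of 4 listed leukocyte markers, PTPRC and CD3E were listed at 0 in all libraries, LYZ was at 0.37 to 0.57 FPKM, and CD68, a lysosomal protein gene that other cells also express, rose to 67.7 and 117 FPKM in KO libraries, against 30.2 and 39.0 FPKM in WT libraries (adjusted p 0.00863 in limma). HBP1, named in the series title, was at 8.35 and 9.71 FPKM in KO libraries, against 2.97 and 4.66 FPKM in WT libraries.

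The comparison asked which markers differed between KO and WT cells. Genes that reached 1 FPKM in 2 or more libraries entered the limma test on log2(FPKM + 1), and a gene was called at a Benjamini-Hochberg adjusted p under 0.05 over all tested genes. A log2 fold change on this scale is KO over WT and understates the change of low genes. Of the 9 markers, 6 were tested and 1 was called, EPCAM, which was lower in KO, against 27% called of all 11786 tested genes. EPCAM reached 1 FPKM in its WT libraries alone, so the filter set its direction, and without the filter no marker was called. Over all genes 16.2% were called higher and 10.8% lower in KO (1906 and 1278 genes). With the libraries scaled by the median of ratios the split turned to 1409 higher and 1830 lower, and SOX9 joined EPCAM among the called markers, both lower in KO.

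**Figure D1:**
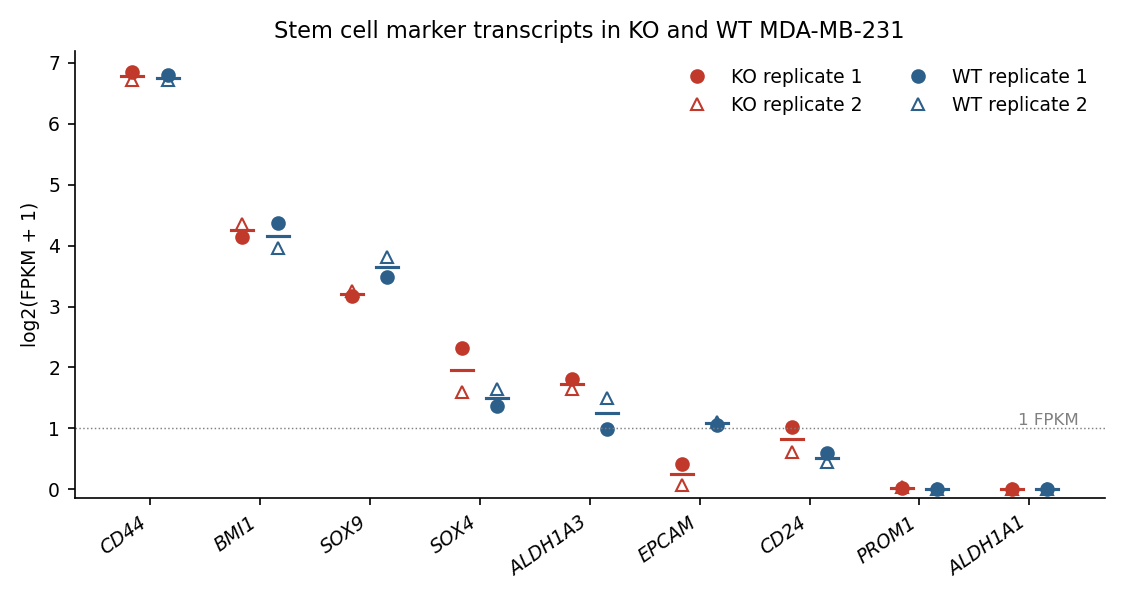
Level of each marker in every library as log2(FPKM + 1), KO in red and WT in blue, with replicate 1 as a filled circle, replicate 2 as an open triangle and the mean of a group as a short line. CD44 stands near 109 FPKM in KO and 107 FPKM in WT, while EPCAM, CD24, PROM1 and ALDH1A1 stand near or below the dotted line at 1 FPKM.

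The markers spanned the whole range of expression, and their order was led by CD44, BMI1 and SOX9 in both groups. CD44 lay above 96.1% of listed genes in KO and above 96.0% in WT, BMI1 above 78.9% and 78.5%, and SOX9 above 66.9% and 73.0%. In all 4 libraries CD44 exceeded BMI1 and BMI1 exceeded SOX9, with no overlap of their values. SOX9 in turn exceeded SOX4 and ALDH1A3, whose values overlapped each other. The order at the low end differed between the groups: CD24 stood above EPCAM in both KO libraries, and EPCAM stood above CD24 in both WT libraries. PROM1 and ALDH1A1 came last.

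CD44 (chr11:35139171-35232402, GRCh38.p14) was abundant and near equal in the groups, with 114 and 105 FPKM in KO libraries, against 111 and 104 FPKM in WT libraries. Its values overlapped between the groups. The log2 fold change was 0.027 ± 0.111 (SE), with a 95% interval from -0.23 to 0.28 and an adjusted p of 0.873 in limma. Scaling turned its sign (-0.081, adjusted p 0.624 in limma). The row of the table pools 8 RefSeq transcripts of CD44, so the standard form and the variant forms that carry extra exons cannot be told apart. ESRP1 and ESRP2, which favour the variant exons in epithelial cells, were at 0.175 ± 0.0354 and 0.355 ± 0.0212 FPKM in KO and at 0.13 ± 0 and 0.41 ± 0.0849 FPKM in WT.

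CD24 (chr6:106969831-106976855, GRCh38.p14) was scarce in every library. It was at 1.04 and 0.53 FPKM in KO libraries, against 0.51 and 0.36 FPKM in WT libraries, and was not tested because a single library reached 1 FPKM. The KO values lay above the WT values, the lower KO value only just. CD24 has near-identical processed copies elsewhere in the genome, and the sources used here do not say how their reads were split. The CD44 to CD24 log2 ratio, on FPKM + 1, was 5.82 and 6.11 in KO libraries, against 6.21 and 6.27 in WT libraries. Both groups thus kept CD44 far above CD24, with a KO minus WT difference in mean ratio of -0.27, and of -0.65 with a pseudocount of 0.1. The difference was -0.13 without KO replicate 1 and -0.42 without KO replicate 2.

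EPCAM (chr2:47369311-47387020, GRCh38.p14), which encodes an adhesion molecule of epithelial cells, fell in KO. It was at 0.34 and 0.05 FPKM in KO libraries, against 1.08 and 1.15 FPKM in WT libraries, and its log2 fold change was -0.83 ± 0.16 (SE, adjusted p 0.0103 in limma). The groups did not overlap, as in 28.7% of tested genes with lower KO values, and the KO mean was 0.175 times the WT mean. In bulk RNA fewer cells with a transcript and less transcript per cell cannot be told apart. EPCAM passed the filter on low values through its WT libraries alone. Among tested genes it was thus bound to be lower in KO without overlap of the groups. Its WT level lies just past the 1 FPKM limit. It was not called without KO replicate 2 (-0.66, adjusted p 0.0705) or without the filter (adjusted p 0.0609), and without WT replicate 1 or WT replicate 2 it was not tested.

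None of the genes whose products work with EPCAM was called lower in KO. Of 9 partner and processing genes, 7 were tested, 3 rose in KO and none was called lower, with a median log2 fold change of 0.38 beside 0.074 over all tested genes. Over all tested genes 16.2% were called higher and 10.8% lower. FHL2, a cofactor that binds the cleaved tail of EPCAM, was at 47.5 and 29.5 FPKM in KO libraries, against 54.0 and 51.6 FPKM in WT libraries (-0.48, adjusted p 0.117). SPINT2, a membrane protease inhibitor, was at 216 and 196 FPKM in KO libraries, against 85.1 and 117 FPKM in WT libraries. Its log2 fold change was 1.03 ± 0.16 (adjusted p 0.00513 in limma). The groups did not overlap, as in 39.3% of tested genes with higher KO values. The others that rose were CD9, a tetraspanin, by 0.75, and CLDN7, a tight junction protein that binds EPCAM, by 0.84. CLDN7 was not called after scaling (adjusted p 0.0560) or without KO replicate 1, KO replicate 2 or WT replicate 1 (adjusted p up to 0.220), and CD9 was not called without WT replicate 1 (0.0571). Of 6 tested epithelial markers, ELF3 rose by 1.26 and the keratin genes KRT8 and KRT18 fell by 1.10 and by 0.61. ELF3 passed the filter through its KO libraries alone, so it was bound to be higher in KO, and it was not tested without KO replicate 1 or KO replicate 2. KRT18 was not called without WT replicate 2 (adjusted p 0.0562). The other tested epithelial markers, KRT7, KRT19 and CLDN4, were not called, with log2 fold changes of 0.056, 0.35 and 0.50. The 11 listed epithelial markers summed to 687 to 734 FPKM in KO and to 857 to 1070 FPKM in WT. Most of that sum was KRT7, KRT8 and KRT18. CDH1, RAB25 and OVOL1 were at or near 0, and the part of the epithelial markers in the EPCAM result was not tested.

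PROM1 (chr4:15968228-16084023, GRCh38.p14), the gene of the surface protein CD133, was at 0.01 and 0.03 FPKM in KO libraries and listed at 0 in both WT libraries. ALDH1A1 (chr9:72900671-72953053) was listed at 0 in all 4 libraries. These 2 genes gave no test and no fold change.

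ALDH1A3 (chr15:100879831-100916626, GRCh38.p14) had the highest level of the ALDH1A group. It was at 2.52 and 2.13 FPKM in KO libraries, against 0.99 and 1.84 FPKM in WT libraries. The KO values lay above the WT values, as did those of 39.3% of tested genes. The log2 fold change was 0.48 ± 0.20 (SE), with a 95% interval from 0.027 to 0.94 and an adjusted p of 0.105 in limma, so it was not called. Without WT replicate 2, the higher WT library, it was called (0.74, adjusted p 0.0301), and without WT replicate 1 the log2 fold change was 0.22.

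**Figure D2:**
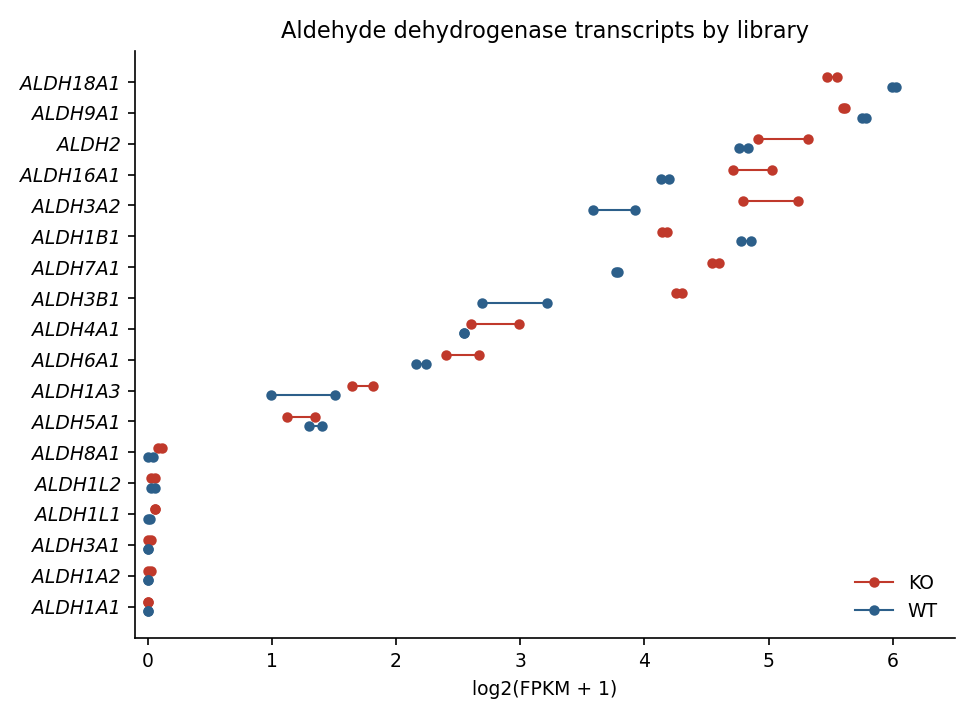
Levels of the 18 listed aldehyde dehydrogenase genes as log2(FPKM + 1), each point a library, KO in red above WT in blue, with a line joining the replicates. ALDH1A3, at 2.33 FPKM in KO and 1.42 FPKM in WT, stands below 10 other family members.

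Beside the family, ALDH1A3 was a small part of the aldehyde dehydrogenase transcripts. Its share of the summed FPKM of 18 family members was 0.895% ± 0.0721 in KO and 0.608% ± 0.246 in WT (SD, n = 2 each). ALDH9A1 and ALDH18A1, which serve carnitine and proline synthesis, held 18.4% ± 0.557 and 17.2% ± 0.0403 of the sum in KO, and 23.1% ± 0.110 and 27.4% ± 1.01 in WT. Of 11 other family members tested, 4 rose and 2 fell in KO, against 16.2% called higher and 10.8% lower of all tested genes. The median log2 fold change of these members was 0.32. ALDH3B1, which acts on lipid-derived aldehydes, rose to 18.4 ± 0.495 FPKM in KO, against 6.88 ± 2.02 FPKM in WT (1.33 ± 0.19, adjusted p 0.00422 in limma). ALDH1B1, a mitochondrial enzyme, fell to 16.9 ± 0.339 FPKM in KO, against 27.2 ± 1.18 FPKM in WT (-0.66 ± 0.13, adjusted p 0.0101), and was not called without WT replicate 1 (0.0540). Genes listed for retinoid handling and receptors were also mixed, with 1 rise and 3 falls among 10 tested and a median of -0.14. A transglutaminase gene was among the falls. CRABP2, which carries retinoic acid to its nuclear receptors, was at 1.08 ± 0.361 FPKM in KO and 4.77 ± 1.89 FPKM in WT (-1.45, adjusted p 0.00646). RDH10, which makes retinal from retinol, rose by 0.58 (adjusted p 0.0281), but was not called when any of the 4 libraries was left out (adjusted p up to 0.140).

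SOX9 (chr17:72121020-72126416, GRCh38.p14) was the most abundant SOX gene listed. It was at 8.07 and 8.50 FPKM in KO libraries, against 10.2 and 13.0 FPKM in WT libraries. The groups did not overlap, as in 28.7% of tested genes with lower KO values. The log2 fold change was -0.43 ± 0.16 (SE), with a 95% interval from -0.80 to -0.063 and an adjusted p of 0.0802 in limma. It was not called on the deposited values, and was called as lower in KO after scaling (-0.53, adjusted p 0.0421). Without WT replicate 2, the higher WT library, the log2 fold change was -0.27 (adjusted p 0.341).

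SOX4 (chr6:21593751-21598619, GRCh38.p14) varied more between replicates than 96.9% of tested genes. It was at 3.97 and 2.01 FPKM in KO libraries, against 1.58 and 2.12 FPKM in WT libraries, so that KO replicate 1 stood apart and KO replicate 2 lay within the WT range. The log2 fold change was 0.45 ± 0.24 (SE), with a 95% interval from -0.12 to 1.01 and an adjusted p of 0.201 in limma. Without KO replicate 1 it was 0.085, and without KO replicate 2 it was 0.81 (adjusted p 0.0582). Of the summed FPKM of 12 listed SOX genes, SOX9 held 38.7% ± 4.41 in KO and 41.9% ± 0.220 in WT, and SOX4 13.7% ± 5.38 in KO and 6.66% ± 0.283 in WT (SD, n = 2 each). Of the other SOX genes 3 were tested and none was called with limma. With an unadjusted p under 0.05 there was SOX13 (-0.51, adjusted p 0.0661), named after its value was seen, which was called as lower in KO after scaling (adjusted p 0.0382).

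BMI1 (chr10:22321099-22331706, GRCh38.p14) did not separate the groups. It was at 16.7 and 19.5 FPKM in KO libraries, against 19.7 and 14.5 FPKM in WT libraries, and the groups overlapped. The log2 fold change was 0.089 ± 0.174 (SE), with a 95% interval from -0.31 to 0.49 and an adjusted p of 0.728 in limma, and scaling turned its sign (-0.014). The read-through gene COMMD3-BMI1, which shares exons with BMI1, was at 1.72 and 1.24 FPKM in KO libraries and at 1.27 and 0.67 FPKM in WT libraries, and the sources used here do not say how shared reads were split.

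BMI1 is 1 of 6 paralogous PCGF subunits, each of which marks a form of Polycomb repressive complex 1. It held 17.9% ± 1.15 of their summed FPKM in KO and 16.6% ± 2.49 in WT (SD, n = 2 each). PCGF5, the paralogue of a variant complex, held 26.3% ± 0.997 in KO and 17.0% ± 2.31 in WT, and its level rose by a log2 value of 0.59 ± 0.16 (adjusted p 0.0331 in limma). It was not called after scaling (0.0581) or without KO replicate 1, KO replicate 2 or WT replicate 2 (adjusted p up to 0.166). Of 21 other subunits of the complex, all tested, PCGF5 rose and BCOR, a corepressor of the complex that holds PCGF1, fell (-0.89 ± 0.15, adjusted p 0.00614), with a median of -0.080. After scaling none of these subunits rose and 3 fell. On the deposited values 16.2% of all tested genes were called higher and 10.8% lower.

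**Figure D3:**
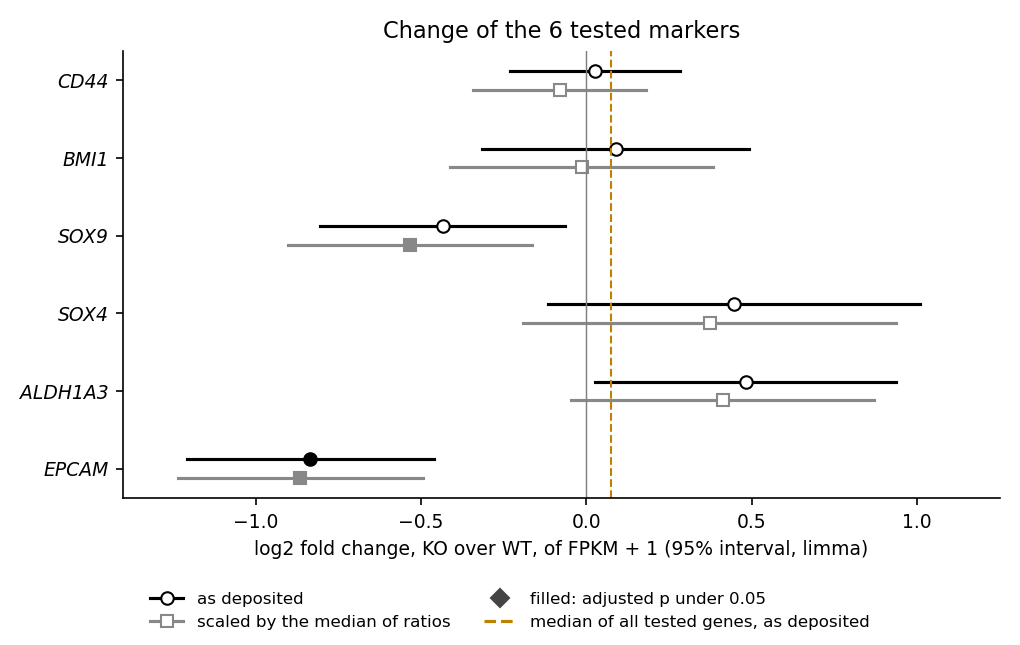
Log2 fold change of FPKM + 1, KO over WT, of the 6 tested markers with 95% intervals from limma, for values as deposited (black circles) and scaled by the median of ratios (grey squares), filled where the adjusted p was under 0.05. EPCAM at -0.83 and -0.87 is filled in both, SOX9 at -0.53 only after scaling, and the intervals of CD44 and BMI1 span 0. EPCAM passed the filter on low values through its WT libraries alone, so the filter set its direction.

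Of the genes linked to CD44 function, 13 of 21 were tested, 1 rose and 1 fell, with a median of 0.016. The shares over all tested genes were 16.2% called higher and 10.8% called lower. After scaling 1 of the CD44-linked genes rose and 2 fell. EZR, the gene of ezrin, which ties the tail of CD44 to actin, was at 66.3 and 61.9 FPKM in KO libraries, against 135 and 140 FPKM in WT libraries (-1.09 ± 0.11, adjusted p 0.00144 in limma). HMMR, which encodes another hyaluronan receptor with a role at the mitotic spindle, rose by 0.79 (adjusted p 0.0154), but was not called without KO replicate 1, KO replicate 2 or WT replicate 2 (adjusted p up to 0.0707). HAS2, a hyaluronan synthase, was at 1.20 and 0.39 FPKM in KO libraries, against 2.14 and 0.77 FPKM in WT libraries, and was not called (adjusted p 0.316).

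Among the genes of other surface proteins used to enrich tumour-initiating cells, more were called higher than lower in KO. Of 21 such genes 15 were tested, 8 rose and 1 fell in KO, with a median of 0.43. The shares over all tested genes were 16.2% called higher and 10.8% called lower. After scaling 7 of the surface protein genes rose and 1 fell. CD55, which shields cells from complement, was at 29.8 ± 3.22 FPKM in KO and 10.7 ± 0.679 FPKM in WT (1.40 ± 0.14, adjusted p 0.00151 in limma). ENG, a co-receptor for TGF-β ligands, was at 0.175 ± 0.0778 FPKM in KO and 4.42 ± 0.544 FPKM in WT (-2.20, adjusted p 0.000434), and it too passed the filter through its WT libraries alone. Without the filter CD55 and ENG stayed called. The other surface protein genes called here were then at adjusted p 0.0589 to 0.116 in limma. Of the pluripotency factors, 2 of 12 were tested and MYC fell by 0.57 (adjusted p 0.0102, and 0.0553 without WT replicate 1). SOX2 was at no more than 0.15 FPKM, NANOG at no more than 0.10 FPKM and POU5F1 at no more than 0.47 FPKM in any library.

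**Figure D4:**
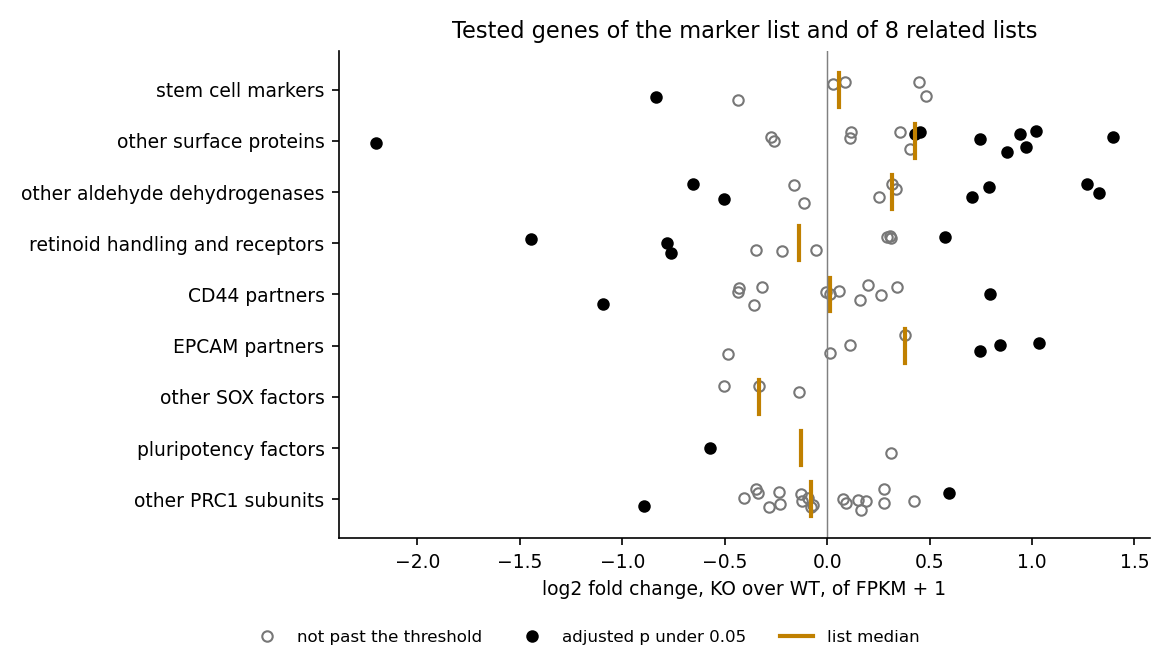
Log2 fold change of FPKM + 1, KO over WT, of the tested genes of the marker list and of 8 related lists, filled where the adjusted p was under 0.05, with the list median as a bar. The marker median is 0.058 with 1 called gene, and the medians of EPCAM partners and of other surface proteins are 0.38 and 0.43.

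Since EPCAM was the called marker, genes with the most similar profile to it were sought among 11540 tested genes, by the root mean square distance of centred log2(FPKM + 1) over the 4 libraries. They were TNS1, which encodes the focal adhesion protein tensin, at a distance of 0.0272, and SLITRK5, a neuronal membrane protein gene, also at 0.0272. TNS1 was at 0.49 and 0.22 FPKM in KO libraries, against 1.32 and 1.47 FPKM in WT libraries. Like EPCAM, TNS1 passed the filter through its WT libraries alone, so the filter set its direction too. Over 4 libraries such a profile holds little beyond the difference between the groups.

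In the 300 bases around the start site (250 before and 50 after, RefSeq, GRCh38.p14), 7 of the 9 markers had a promoter entry. EPCAM and SOX9 had none. ALDH1A3 held 46 CG dinucleotides, more than 97.1% of 35116 promoters, and BMI1 held 36. ALDH1A1, listed at 0, held 7, and PROM1, near 0, held 18, the same number as the abundant CD44. SOX4, at 1.58 to 3.97 FPKM, held 8, and the scarce CD24 held 25. Where a gene had more than 1 promoter entry, a single entry was taken.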

How the data were processed

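Per the labels' protocols, RNA was extracted with Trizol and libraries were prepared with a TruSeq RNA kit of Illumina. Per the file headers, the authors deposited FPKM values for each gene in each library, with 2 decimals. The submitters' processing notes name HISAT, StringTie, Cufflinks and GATK and the build hg38, without roles or versions, and the sources used here do not say which made the values. All columns of values matched a sample. Genes reaching 1 FPKM in 2 or more libraries (11786 of 20804) were tested on log2(FPKM + 1) with limma 3.58.1 (R 4.3.3), with genotype as the only term, a trended prior variance and adjustment by Benjamini-Hochberg over all tested genes. The fit was also run on simulated data without the filter on low values, so the effect of that filter was not simulated. The outcome of that run is not reported here. Depth is unknown, so no counting error is given. The markers and the related lists were chosen with earlier results of these data known, and counts over lists are descriptions. Named genes were the 9 markers, the called gene of smallest p in each direction of each related list, the 2 nearest profiles to a called marker, marker genes that check the label, and HBP1; further partners that rose, SOX13, ALDH9A1, ALDH18A1, HAS2, FHL2, ESRP1, ESRP2 and the pluripotency factors given at low levels were named after their values were seen. Symbols were matched in RefSeq gene tables (GRCh38.p14), and tables and plots made with Python 3.11.15, pandas 2.3.3 and matplotlib 3.10.9. Some genes that this rule takes are not reported here.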

Additional observations from a re-analysis of the deposited data

How the results depend on the processing

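The number of called markers, 1, was 1 with a pseudocount of 0.1 and with the replicate block, 2 after scaling, and 0 without the filter or at 5 FPKM, where limma gave 2 and 1 markers at an unadjusted p under 0.05. At 5 FPKM only 3 markers were tested, and EPCAM was not among them. With a library left out the marker that stood out was not always EPCAM. Its log2 fold change was -1.01 without KO replicate 1 and -0.66 without KO replicate 2. EPCAM was not tested without WT replicate 1 or WT replicate 2. ALDH1A3, higher in KO, was at 0.74 without WT replicate 2. Over all genes the calls were 3184, 525 without the filter, and 1411 to 1984 with a library left out. In the related lists 26 genes were called, 4 without the filter, and 16 to 20 with a library left out. CD44 turned to -0.081 after scaling and ranged from -0.035 to 0.089 with a library left out, and BMI1 turned to -0.014 and ranged from -0.12 to 0.30. The difference in the CD44 to CD24 log2 ratio was -0.27, -0.65 with a pseudocount of 0.1, and -0.42 to -0.13 with a library left out. The cause of these shifts was not tested. Replicate numbers are shared between the groups without a stated pairing: the differences between replicates correlated at -0.18 across genes, and the replicate block gave 2864 calls, 1 marker and 26 list genes. The crossed pairing, chosen after seeing the data, gave 4170 calls, 2 markers and 31 list genes. Depth is unknown, which limits what can be said of markers under 1 FPKM.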
